A study of Mus musculus with 4 samples.

Results

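The genes described here carry out the presentation of cytosolic peptides on MHC class I. The 10 members were B2m, H2-K1 and H2-D1 (the light chain and the classical heavy chains), Tap1, Tap2 and Tapbp (peptide transport and loading), Psmb8, Psmb9 and Psmb10 (the inducible catalytic subunits of the immunoproteasome) and Nlrc5 (a transactivator of class I genes). They were matched by symbol, and all 10 were found among the 31053 entries of the gene lists. Their UMIs (unique molecular identifiers, each standing for 1 captured RNA molecule) were summed over marker-gated cells in each library, and a level is given as UMIs per 1000000 UMIs of those cells (CPM). Because a 3' count depends on how well the end of each transcript is captured, levels are compared between cells and libraries and not between genes.

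The data were 3' single-cell RNA-seq of thymic epithelial cells (TECs) from the thymus of 6-week-old mice on a C57BL/6 background, sorted as EpCAM+ CD45- TER119- cells. Of the 4 libraries, WT-Control came from wild-type mice given control IgG and WT-RANKL-Ab from wild-type mice given a neutralizing antibody to RANKL, a ligand that drives mTEC development. Cd40-/- Control came from Cd40-deficient mice given control IgG, and Cd40-/- RANKL-Ab from Cd40-deficient mice given the neutralizing antibody. Where 4 values are listed below without names they follow this order, and 3 values are those of the libraries after WT-Control. Each library pooled several mice and each condition had 1 library, so no test between conditions was possible, and intervals given for levels and ratios are 95% and cover counting error only. The deletion and the injected antibody were not restricted to TECs.

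A proteasome cuts cytosolic proteins into peptides, the TAP1-TAP2 transporter moves these into the endoplasmic reticulum, and tapasin (Tapbp) helps to load them on a heavy chain paired with B2m. In cells exposed to interferon, PSMB8, PSMB9 and PSMB10 replace the constitutive subunits PSMB5, PSMB6 and PSMB7. Cortical TECs (cTECs) are known instead for the thymoproteasome, in which PSMB11 takes the place of PSMB5 or PSMB8 beside PSMB9 and PSMB10, and which serves the positive selection of CD8 T cells. Medullary TECs (mTECs) present self antigens to developing T cells.

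B2m lies on chromosome 2 (122147686 to 122153083, build GRCm38). On chromosome 17, within the mouse MHC, lie Tapbp (33915899 to 33929292), H2-K1 (33996017 to 34000347), Psmb9 (34181987 to 34187764), Tap1 (34187553 to 34197225), Psmb8 (34197721 to 34201454), Tap2 (34203527 to 34216321) and H2-D1 (35262730 to 35267499). Nlrc5 (94434356 to 94527272) and Psmb10 (105935735 to 105938444) lie on chromosome 8. These spans are those of the GENCODE annotation, over all transcripts of a gene. Promoter windows of RefSeq (build GRCm38.p6), which run from 250 bases before to 50 after the start that RefSeq gives, were at hand for 8 of the 10 members, the exceptions being Tap2 and Nlrc5. They are shown for 5 members, B2m, H2-K1, H2-D1, Tap1 and Psmb8. B2m, H2-K1 and H2-D1 shared motif letters while their levels did not move alike. Tap1 and Psmb9 are read in opposite directions from windows that share 275 bases (chr17:34187306-34187580), and only that of Tap1 is shown. Psmb8 alone held a match to TTCNNNGAA. For Psmb8, Psmb9, H2-D1 and Tapbp the RefSeq start lies inside the span above. Read in the direction of the gene, the window begins after the start of the span, so their windows do not lie upstream of every transcript. Capitals mark matches, on either strand, to the interferon-stimulated response element (2 copies of GAAA with 2 bases between them), the gamma-activated site TTCNNNGAA, an NF-kB motif and TGACG, the core of the X2 box through which class I genes are regulated.

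B2m (chr2:122147437-122147736, plus strand): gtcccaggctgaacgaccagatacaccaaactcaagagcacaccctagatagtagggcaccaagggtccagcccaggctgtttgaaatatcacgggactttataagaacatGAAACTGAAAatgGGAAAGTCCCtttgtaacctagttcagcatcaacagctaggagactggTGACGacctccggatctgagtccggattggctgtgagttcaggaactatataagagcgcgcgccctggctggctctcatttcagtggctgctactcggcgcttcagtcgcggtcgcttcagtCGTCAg

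H2-K1 (chr17:34000298-34000597, minus strand): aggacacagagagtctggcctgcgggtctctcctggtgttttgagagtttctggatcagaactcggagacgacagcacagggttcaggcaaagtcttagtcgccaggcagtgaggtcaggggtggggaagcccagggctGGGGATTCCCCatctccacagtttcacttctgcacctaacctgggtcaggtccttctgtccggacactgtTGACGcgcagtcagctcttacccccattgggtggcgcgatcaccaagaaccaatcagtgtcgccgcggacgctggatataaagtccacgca

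H2-D1 (chr17:35262844-35263143, plus strand): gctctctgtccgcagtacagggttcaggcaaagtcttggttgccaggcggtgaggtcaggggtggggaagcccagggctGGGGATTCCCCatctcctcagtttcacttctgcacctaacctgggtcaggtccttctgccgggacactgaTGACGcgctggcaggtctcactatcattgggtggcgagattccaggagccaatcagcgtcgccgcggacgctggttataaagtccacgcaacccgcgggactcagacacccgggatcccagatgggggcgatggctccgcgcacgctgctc

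Tap1 (chr17:34187306-34187605, plus strand): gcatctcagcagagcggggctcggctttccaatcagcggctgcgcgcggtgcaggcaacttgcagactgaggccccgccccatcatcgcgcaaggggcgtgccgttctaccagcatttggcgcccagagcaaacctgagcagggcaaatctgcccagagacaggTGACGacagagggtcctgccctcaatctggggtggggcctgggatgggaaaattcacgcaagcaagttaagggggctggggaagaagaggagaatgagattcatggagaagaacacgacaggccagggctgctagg

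Psmb8 (chr17:34197945-34198244, plus strand): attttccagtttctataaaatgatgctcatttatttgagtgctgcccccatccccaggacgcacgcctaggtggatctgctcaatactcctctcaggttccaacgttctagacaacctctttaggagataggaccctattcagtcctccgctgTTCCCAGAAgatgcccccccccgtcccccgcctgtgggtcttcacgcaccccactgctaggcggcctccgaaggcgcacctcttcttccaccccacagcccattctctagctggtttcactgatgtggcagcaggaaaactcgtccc

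The exact form of the interferon-stimulated response element given above was in the window of B2m alone, 139 bases before the RefSeq start. It was in 3.44% of all 32851 windows. Only this form was sought, and elements that differ from it by a letter or in spacing would be missed. The search therefore cannot say whether the windows of H2-K1, H2-D1 and the other members hold such an element. TTCNNNGAA was in the window of Psmb8 alone, 97 bases before the RefSeq start and within the gene span given above, against 8.3% of all windows. The NF-kB motif was in the windows of B2m, H2-D1 and H2-K1, against 8.46% of all windows, and in H2-K1 and H2-D1 its matches overlap each other within the same 11 letters. TGACG was in 5 of the 8 members, B2m, H2-D1, H2-K1, Psmb9 and Tap1, against 20.8% of all windows, and CCAAT in 6 of the 8, against 37.4%. The windows of Psmb10 and Tapbp held none of the first 4 motifs. These are matches of letters, not sites of binding.

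Cd40 was at 110.0 and 28.8 CPM in the wild-type libraries, the lower value with the antibody, and at 5.75 and 4.75 CPM in those labelled Cd40-/-. Whether the deletion removed the counted 3' end is not given in the sources used here. After filtering, 2082 to 10218 cells remained per library with median depths of 6086 to 7621 UMIs and median mitochondrial shares of 2.32% to 2.89%. The Cd40-/- libraries shared 205 cell barcodes, 9.85% of the cells of Cd40-/- RANKL-Ab, against 0.817% to 1.42% for the other pairs; leaving out all shared barcodes changed none of the 50 calls of the class contrasts below. Cells were gated on Ccl21a (CCL21+ mTECs), Aire with little Ccl21a (Aire+ mTECs), Prss16 (cTECs), cell cycle genes with little Ccl21a (cycling cells), tuft cell genes, and Pdpn, Ackr4, Dcn and Serpinf1 (progenitors). The names stand for these gates, which are ranges of a score: 9.13% of all cells lay between 0.5 and 2 times the Ccl21a cut, 10.2% for Aire, 5.02% for Prss16 and 10.4% for the progenitor genes. Psmb11, which was not used for gating, was at 2736 to 3549 CPM in the cTEC gate and 5.88 to 61.0 in the CCL21+ mTEC gate. A cell passing both the Prss16 and the progenitor cut was counted as a progenitor, and Prss16 was at 370 to 1061 CPM in the progenitor gate. Only 3 Aire+ mTECs and 4 cycling cells were found in Cd40-/- RANKL-Ab, and no levels are given for them.

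Class I chains were lower in progenitors and cTECs than in CCL21+ mTECs. B2m was at 11990, 6875, 10390 and 5150 CPM in CCL21+ mTECs. In progenitors it was at 6630, 2855, 3356 and 1699 CPM, below the CCL21+ mTECs of the same library each time. The edgeR quasi-likelihood test across gates, with the library as a block and Benjamini-Hochberg adjustment over 14604 genes, put B2m lower in progenitors by a log2 fold of -1.47 ± 0.19 (SE, adjusted p = 9.81e-06) and in cTECs by -0.84 ± 0.19 (adjusted p = 0.00127). In that test the libraries of different conditions (4, or 3 for Aire+ mTECs and cycling cells, of which Cd40-/- RANKL-Ab had too few) stand as replicates of the gate difference, so any effect of condition on that difference is part of the error.

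H2-K1, a classical heavy chain, was at 3821, 3769, 4443 and 2711 CPM in CCL21+ mTECs and 2592, 2335, 2124 and 1272 in progenitors. Its log2 fold was -0.996 ± 0.14 in progenitors (adjusted p = 2.35e-05, edgeR) and -0.66 ± 0.14 in cTECs (adjusted p = 0.000742). H2-D1, the other classical heavy chain, was at 2981, 1628, 2054 and 1889 CPM in CCL21+ mTECs, 1562, 939.7, 910.1 and 1128 in cTECs and 3465, 2153, 2137 and 2658 in tuft cells, the highest of the 3 gates in every library. It was lower by -0.87 ± 0.13 in progenitors (adjusted p = 5.52e-05) and -0.96 ± 0.13 in cTECs (adjusted p = 7.7e-06). In tuft cells H2-D1 was not called (0.13 ± 0.13, adjusted p = 0.43), whereas H2-K1 was lower (-0.42 ± 0.14, adjusted p = 0.0159), as was B2m (-0.52 ± 0.19, adjusted p = 0.0266, edgeR). In cycling cells B2m (-0.76 ± 0.21, adjusted p = 0.0052, edgeR), H2-K1 (-0.49 ± 0.16, adjusted p = 0.0124) and H2-D1 (-0.44 ± 0.15, adjusted p = 0.0156) were all lower. The H2-K1 and H2-D1 calls in cycling cells were lost without Cd40-/- Control or without WT-Control. None of the 3 chains was called in Aire+ mTECs, where their log2 folds were 0.32, -0.21 and 0.01 for B2m, H2-K1 and H2-D1. Without WT-RANKL-Ab, which had 149 Aire+ cells, H2-K1 was called lower there (-0.50, adjusted p = 0.0157). It was also called lower with no filter on low counts (-0.36, adjusted p = 0.0349, edgeR). B2m was called higher in Aire+ mTECs with RLE size factors (0.52, adjusted p = 0.0385, edgeR) and with DESeq2 (0.52, adjusted p = 0.0387). Reads of H2-K1 and H2-D1 could be split with other class I genes of near-identical sequence, so their levels are less certain than those of the other members. None of the 426 windows of 75 bases in the last 500 bases of the longest transcript of either gene was found in a transcript of another gene. Only identical windows were sought, so this search cannot say how reads with mismatches were assigned.

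**Figure D1:**
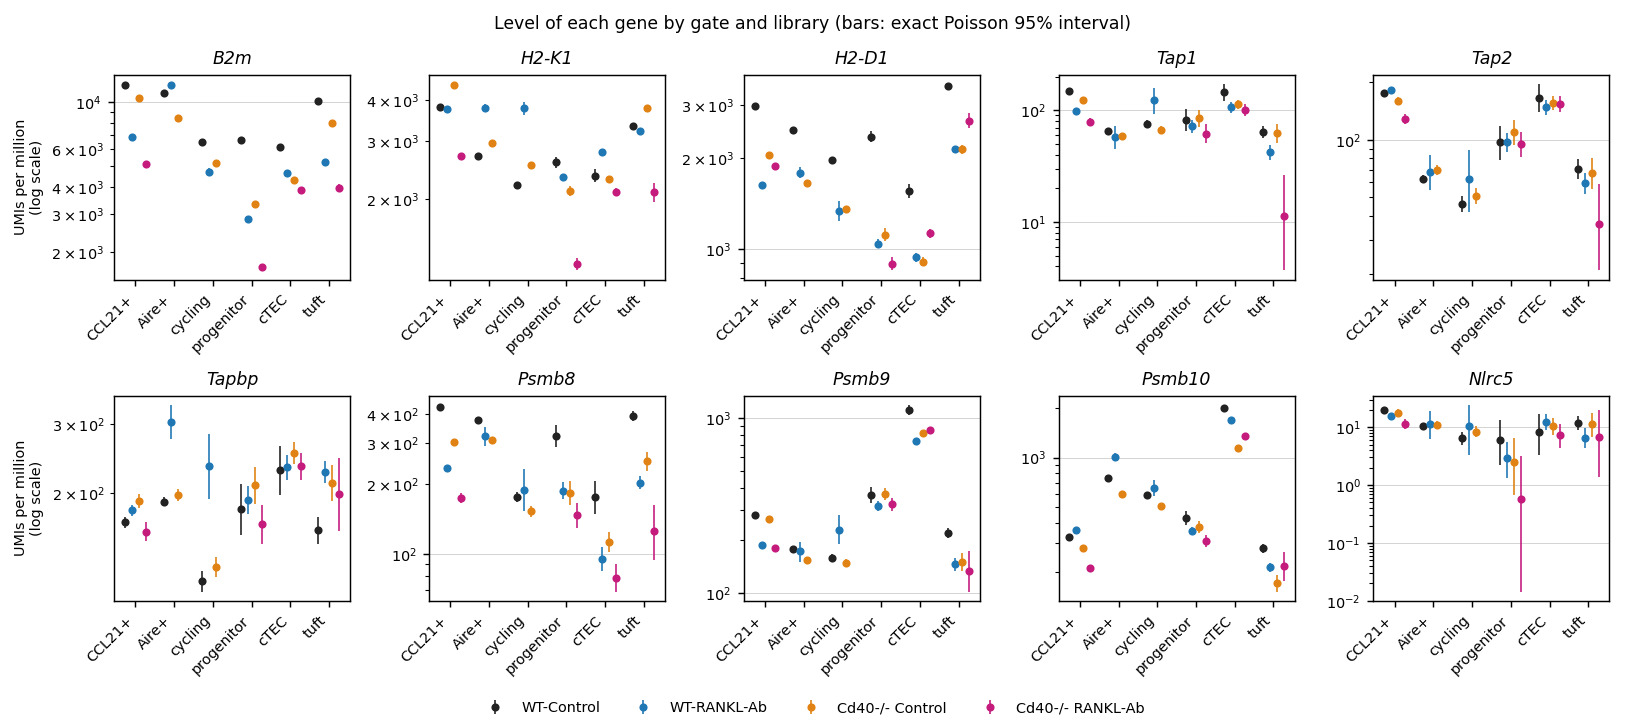
Level in CPM (UMIs per 1000000, log axis) of each of the 10 genes in the 6 gates, 1 point per library with its exact Poisson 95% interval. B2m is highest in CCL21+ or Aire+ mTECs in each library, and Psmb9 and Psmb10 are highest in cTECs in all 4 libraries.

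Genes of peptide transport had another order. Tap2, a chain of the peptide transporter, was at 128 to 183 CPM in CCL21+ mTECs and 148 to 167 in cTECs, against 62.8 to 69.5 in Aire+ mTECs and 36.3 to 70.5 in tuft cells. It was lower than in CCL21+ mTECs in Aire+ mTECs (-1.18 ± 0.12, adjusted p = 1.52e-07, edgeR), cycling cells (-1.65 ± 0.13, adjusted p = 9.88e-09), tuft cells (-1.58 ± 0.12, adjusted p = 1.98e-09) and progenitors (-0.84 ± 0.11, adjusted p = 1.11e-05), and was not called in cTECs (-0.10 ± 0.11, adjusted p = 0.496). Tap1, its partner, was at 149, 98.8, 122 and 79.0 CPM in CCL21+ mTECs and 144, 106, 113 and 101 in cTECs. It was lower in the same 4 gates as Tap2, most in tuft cells (-1.38 ± 0.19, adjusted p = 5.39e-06). Its call in cycling cells was lost without Cd40-/- Control (adjusted p = 0.307), without WT-Control (adjusted p = 0.377), with RLE size factors (adjusted p = 0.1001) and with clusters (adjusted p = 0.264), and that in progenitors without Cd40-/- Control (adjusted p = 0.0528) or WT-Control (adjusted p = 0.0799). Tap1 was at 0.02 ± 0.17 in cTECs. Tapbp, which bridges the transporter and the heavy chain, was higher in Aire+ mTECs (0.49 ± 0.13, adjusted p = 0.003) and cTECs (0.39 ± 0.12, adjusted p = 0.013), and was not called in the other 3 gates. Without WT-RANKL-Ab the call of Tapbp in Aire+ mTECs was lost (0.18, adjusted p = 0.124), and that in cTECs was lost without Cd40-/- RANKL-Ab (0.36, adjusted p = 0.0744) or WT-Control (0.40, adjusted p = 0.0526).

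The 3 immunoproteasome genes did not vary together across gates. In cTECs Psmb10 was at 1143 to 1996 CPM over the 4 libraries, against 212 to 360 in CCL21+ mTECs, a log2 fold of 2.34 ± 0.14 (adjusted p = 1.75e-10, edgeR). Psmb9 was at 740 to 1116 CPM against 180 to 280 (1.91 ± 0.14, adjusted p = 2.85e-09). Psmb8, which PSMB11 replaces in the thymoproteasome, was at 175, 94.9, 112.5 and 78.9 CPM in cTECs, against 429, 234.5, 302.5 and 174 in CCL21+ mTECs (-1.35 ± 0.14, adjusted p = 2.2e-07). The cTEC values lay below the CCL21+ mTEC value of the same library in all 4. Lower Psmb8 was not particular to cTECs. It was also called lower in cycling cells (-0.82 ± 0.15, adjusted p = 0.000191, edgeR), progenitors (-0.58 ± 0.14, adjusted p = 0.00295) and tuft cells (-0.40 ± 0.14, adjusted p = 0.0174). The call in progenitors was lost without Cd40-/- Control (adjusted p = 0.0697). Psmb8 UMIs per 100 Psmb5 UMIs were 24.3 to 39.8 in cTECs, 52.7 to 69.5 in cycling cells and 94.4 to 169 in CCL21+ mTECs. Psmb11 UMIs per Psmb8 UMI were 20.3 to 36.3 in cTECs and 0.0137 to 0.350 in CCL21+ mTECs. Psmb9 was also higher in progenitors (0.45 ± 0.14, adjusted p = 0.0181), where Psmb11 was called higher as well (2.88 ± 0.57, adjusted p = 0.000674), and this Psmb9 call was lost without Cd40-/- RANKL-Ab (0.38, adjusted p = 0.117). Psmb10 was the member with the largest difference in Aire+ mTECs (1.49 ± 0.14, adjusted p = 6.85e-08), at 598 to 1004 CPM, and was higher in cycling cells (0.98 ± 0.15, adjusted p = 1.56e-05) and lower in tuft cells (-0.58 ± 0.14, adjusted p = 0.00132).

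**Figure D2:**
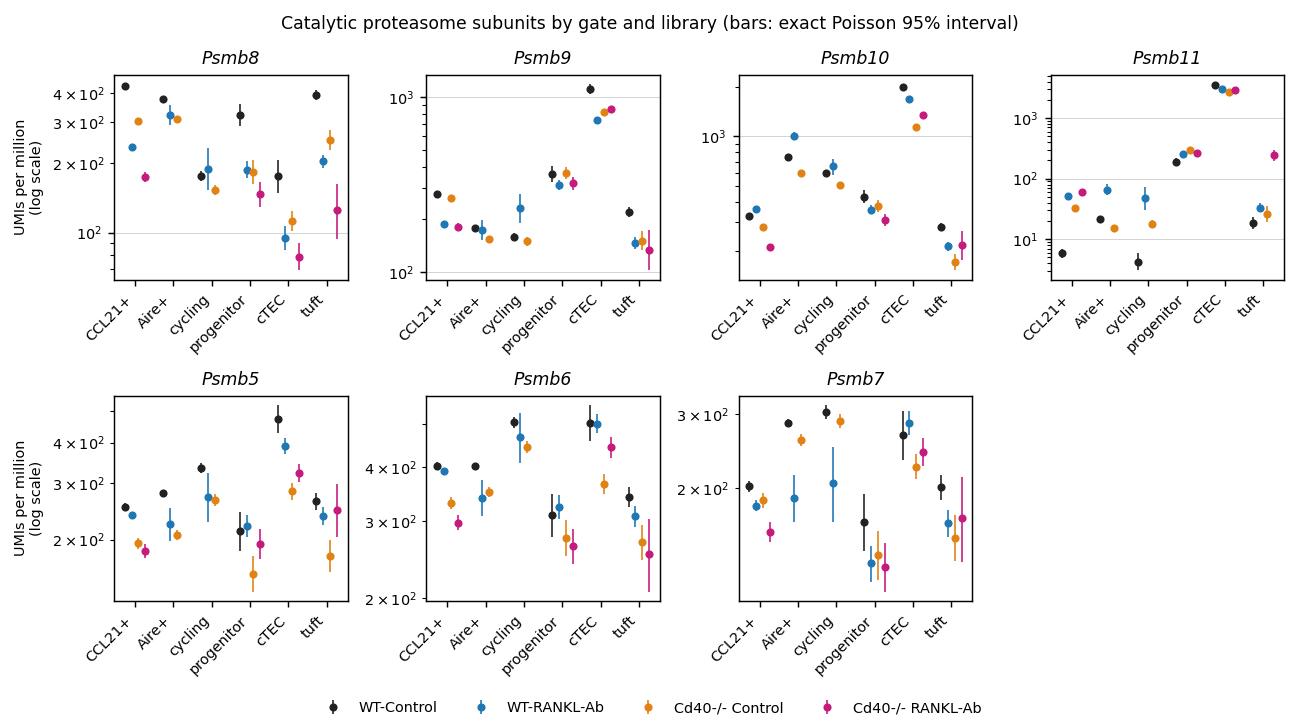
Level in CPM (log axis) of the inducible subunits Psmb8, Psmb9 and Psmb10, the thymic subunit Psmb11 and the constitutive subunits Psmb5, Psmb6 and Psmb7 in the 6 gates, 1 point per library with its exact Poisson 95% interval. In the cTEC gate Psmb9, Psmb10 and Psmb11 are above and Psmb8 is below the CCL21+ mTEC gate in all 4 libraries.

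Nlrc5 was sparse. It was at 19.8, 15.7, 17.8 and 11.6 CPM in CCL21+ mTECs and at 6.02, 2.93, 2.51 and 0.572 in progenitors, the last from 1 UMI. It was lower in all 5 gates than in CCL21+ mTECs, most in progenitors (-2.71 ± 0.29, adjusted p = 8.35e-07, edgeR) and least in Aire+ mTECs (-0.59 ± 0.21, adjusted p = 0.021). The call in Aire+ mTECs was lost without Cd40-/- Control (adjusted p = 0.129) and without WT-Control (adjusted p = 0.13), and that in cTECs (-0.73 ± 0.21, adjusted p = 0.00842) without Cd40-/- Control (adjusted p = 0.0921).

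Counted over the members, 2 were higher and 3 lower in Aire+ mTECs, where 34.8% and 30.7% of all genes tested were called higher and lower. In cTECs 3 were higher and 5 lower, against 22.4% and 26.2% of all genes. In cycling cells 1 was higher and 8 lower, against 26.4% and 28.9%. In progenitors 1 was higher and 7 lower, against 13.7% and 16.6%. In tuft cells none was higher and 8 were lower, against 28.0% and 29.4%. Left-out libraries moved some of these counts by over 1.5 times. Without WT-RANKL-Ab, 1 was higher and 5 lower in Aire+ mTECs, and without Cd40-/- Control or WT-Control 2 were lower. In cycling cells 4 were lower without Cd40-/- Control or without WT-Control. In progenitors none was higher without Cd40-/- RANKL-Ab. In tuft cells 5 were lower without either Cd40-/- library, the calls of B2m, H2-K1 and Psmb8 being lost. With RLE size factors the median log2 fold of all genes in Aire+ mTECs moved from 0.015 to 0.207, and genes called higher and lower there went from 5075 and 4477 to 5950 and 3381.

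**Figure D3:**
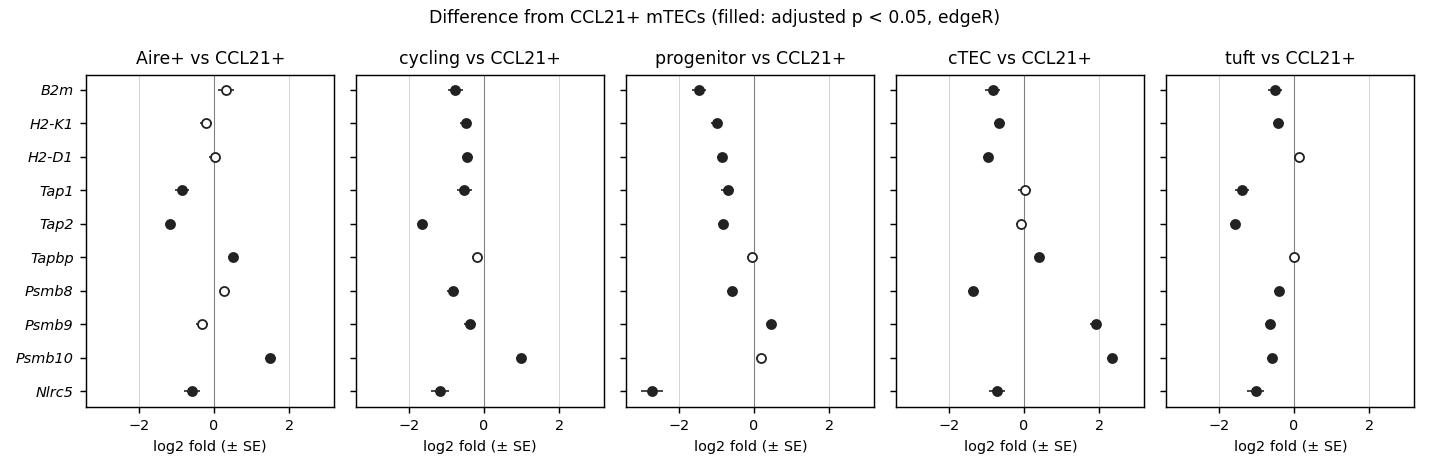
Log2 fold (± SE) of each gene in 5 gates against CCL21+ mTECs from the edgeR fit, over 4 libraries or, for Aire+ and cycling cells, 3; filled points have an adjusted p under 0.05. In cTECs Psmb9 and Psmb10 lie to the right and Psmb8 to the left of 0, and in tuft cells 8 of 10 genes are filled and lie to the left.

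Between conditions, B2m, H2-K1, Tap1 and Psmb8 had the lowest levels in Cd40-/- RANKL-Ab in each of the 4 gates present in all libraries. The margin was small for Tap1 in cTECs, with a log2 ratio to Cd40-/- Control of -0.17 (interval -0.39 to 0.06). In CCL21+ mTECs of Cd40-/- RANKL-Ab B2m had a log2 ratio of -1.22 (interval -1.23 to -1.21) and Psmb8 of -1.30 (-1.38 to -1.22) to WT-Control, while Tapbp was at -0.08. The median over the 10 members was -0.65, against 0.09 over all genes with at least 20 UMIs. B2m and Psmb8 were at least 2-fold lower, 2 of 10 members, and 12.2% of all genes were. In WT-RANKL-Ab no member was 2-fold lower in that gate, against 7.97% of all genes, with B2m at -0.80, Psmb8 at -0.87 and H2-D1 at -0.87. In Cd40-/- Control none was, against 5.83%, and the median was -0.18. The cells of this gate differed between libraries in other genes: the 4 progenitor genes summed to 240, 368, 514 and 1176 CPM, Pdpn was at 66.8, 71.4, 81.5 and 190 and Ccl21a at 25790, 27240, 20560 and 38600. Of the clusters named CCL21+ mTEC, one held 681 cells of Cd40-/- RANKL-Ab and 3 of WT-Control, and another 8 and 1453, so the ratios between these libraries compare cells that clustered largely apart, and the part of this was not tested. The median CCL21+ mTEC had 114, 63.6, 97.3 and 48.0 B2m UMIs per 10000, and 75.3, the upper decile in Cd40-/- RANKL-Ab, lay under 88.2, the lower quartile in WT-Control. With each cell thinned to 2000 UMIs, Psmb8 was detected in 55.8%, 35.3%, 44.3% and 25.9% of CCL21+ mTECs, against 0% to 0.392% for Trpm5, a tuft cell channel these cells should lack, and Nlrc5 was detected in at most 4.55%. Lower members were not particular to TECs. In cells gated on thymocyte genes 4, 4 and 6 of 9 members were at least 2-fold lower than in WT-Control. Of all genes 9.3%, 9.37% and 8.54% were. The median over members there was -1.31 in Cd40-/- RANKL-Ab. That gate held 56 cells in WT-Control and had Ccl21a at 2956, 1119, 233 and 277 CPM, and the part of free RNA was not tested.

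In progenitors B2m had log2 ratios of -1.22, -0.98 and -1.97 to WT-Control, and H2-D1 of -1.18, -1.08 and -1.40. Members at least 2-fold lower were 2, 1 and 4 of 9 with enough UMIs, the 4 being B2m, H2-K1, H2-D1 and Psmb8, against 3.27%, 3.44% and 3.25% of all genes. The WT-Control progenitor gate held 132 cells and differed in other ways: the 4 myeloid genes summed to 109 CPM there and 3.90 to 28.9 in the other 3 libraries, Aire was at 13.1 against 0.325 to 3.14, and the part of this in the ratios was not tested. With clusters in place of gates B2m was at -0.77, -0.62 and -1.39, and no member was 2-fold lower in WT-RANKL-Ab or Cd40-/- Control.

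In cTECs Psmb8 had log2 ratios of -0.88, -0.64 and -1.15 to WT-Control, and B2m of -0.40, -0.51 and -0.68. Psmb10 was at -0.24, -0.80 and -0.56 and Psmb9 at -0.59, -0.44 and -0.39. Psmb8 was the single member at least 2-fold lower, in Cd40-/- RANKL-Ab (1 of 10, against 1.78% of all genes), and none was in WT-RANKL-Ab (2.42%) or Cd40-/- Control (2.83%). The WT-Control cTEC gate had 89 cells, and Nlrc5 there rested on 7 UMIs.

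In tuft cells Psmb8 was at 390.5, 203, 250.5 and 125 CPM, lowest in Cd40-/- RANKL-Ab (log2 ratio -1.65, -2.06 to -1.26) and B2m had a ratio of -1.34. In that library Tap1 was at 11.3 CPM from 5 UMIs in 65 cells against 64.1 in WT-Control (-2.50, -4.13 to -1.26). These 3 of 10 members were at least 2-fold lower, against 14.6% of all genes, and none was in WT-RANKL-Ab (6.6%) or Cd40-/- Control (4.21%). Tapbp was at 0.49 and 0.40 in the first 2 of the 3 libraries, with intervals above 0, and at 0.31 (-0.03 to 0.63) in Cd40-/- RANKL-Ab. The tuft cells of Cd40-/- RANKL-Ab also had Psmb11 at 243 CPM and Prss16 at 272, against 18.6 to 33.4 and 23.5 to 95.7 in the other libraries, and the part of this was not tested.

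Aire+ mTECs and cycling cells of WT-RANKL-Ab numbered 149 and 65. In Aire+ mTECs Tapbp (0.67), H2-K1 (0.48) and Psmb10 (0.43) had ratios above 0 and H2-D1 (-0.46) below, and in cycling cells Tapbp was at 0.97 and H2-K1 at 0.77 while B2m was at -0.46. In the Aire+ gate Prss16 was at 125 CPM and Psmb11 at 66.0 in WT-RANKL-Ab, against 34.3 and 21.5 in WT-Control. The part of this in the ratios of that gate was not tested. The cycling gate of WT-RANKL-Ab also had the 4 progenitor genes at 660 CPM, Prss16 at 305 and Aire at 139, against 39.7, 44.0 and 464 in WT-Control, and the part of this in the ratios was not tested. In Cd40-/- Control the ratios of both gates ran from -0.58 to 0.37. B2m in Aire+ mTECs of WT-RANKL-Ab, at 0.11, was at -0.03 with doubled cuts and -0.04 with clusters.

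**Figure D4:**
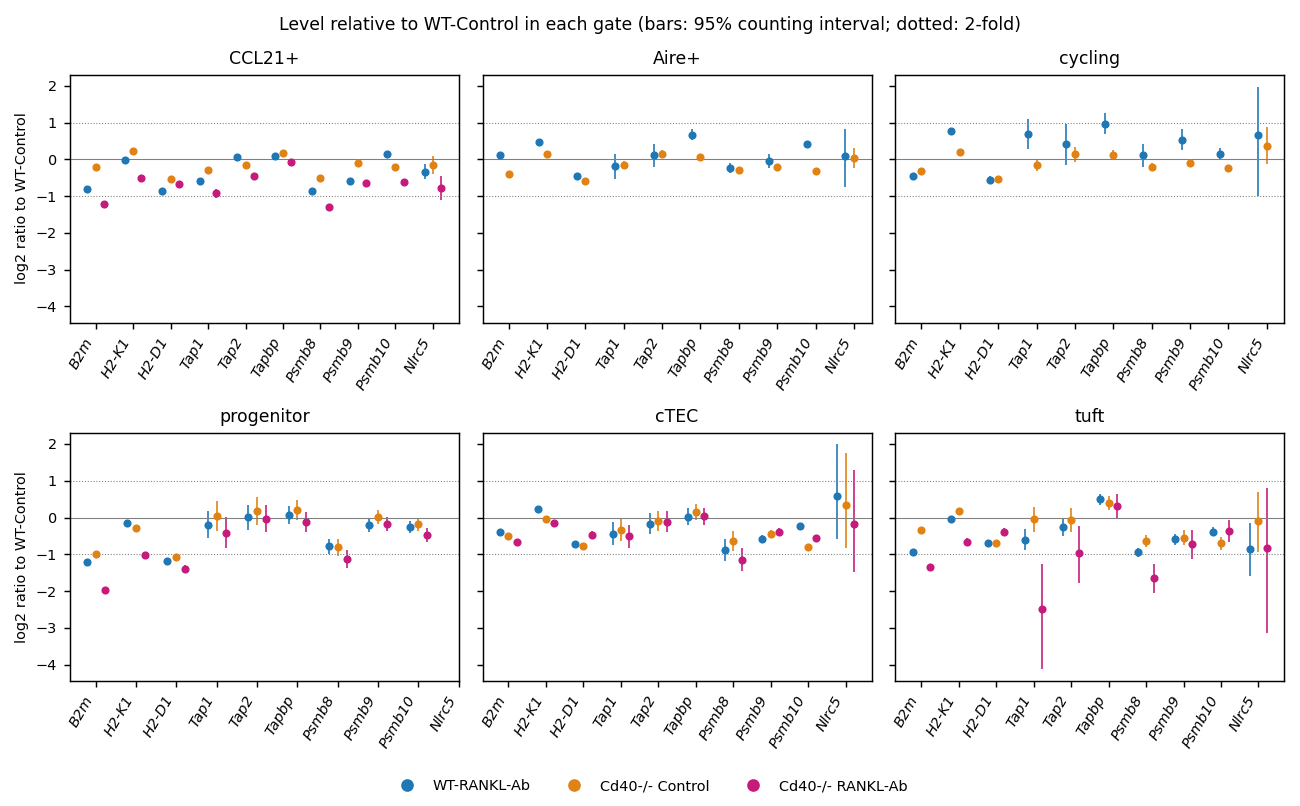
Log2 ratio of each gene to WT-Control within 6 gates for the other 3 libraries, with 95% counting intervals; dotted lines mark 2-fold. Cd40-/- RANKL-Ab lies lowest for B2m, H2-K1, Tap1 and Psmb8 in each gate where it is drawn. Nlrc5 in progenitors is left out for all 3 libraries, as it had too few UMIs.

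H2-K1 and H2-D1 differed from each other between libraries. In CCL21+ mTECs there were 1.28 (1.27 to 1.29) H2-K1 UMIs per H2-D1 UMI in WT-Control and 2.31 (2.29 to 2.34) in WT-RANKL-Ab. In the Cd40-/- libraries there were 2.16 (2.13 to 2.20) without and 1.44 (1.41 to 1.47) with the antibody. In cTECs the same ratios were 1.51, 2.97, 2.53 and 1.87, and in tuft cells 0.962, 1.495, 1.77 and 0.791. WT-RANKL-Ab and Cd40-/- Control were the highest in all of the 4 gates present in every library. They were also the highest in cells gated on thymocyte genes (0.971, 1.95, 1.58 and 0.840) and in cells passing no gate (1.275, 2.62, 2.32 and 1.35). The order of the libraries was thus not particular to the TEC gates, and its cause was not tested. The class I chain H2-Q4 was at 249 CPM in CCL21+ mTECs of WT-Control and 51.9 to 86.6 in the other 3 libraries.

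**Figure D5:**
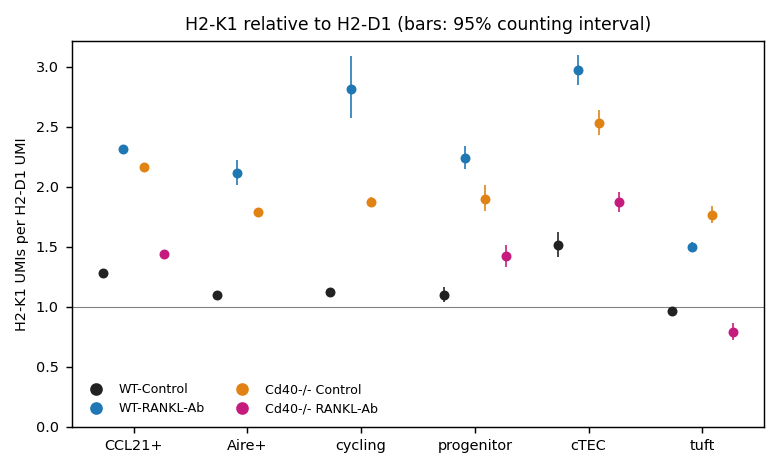
H2-K1 UMIs per H2-D1 UMI in 6 gates, 1 point per library with its 95% counting interval. WT-Control is lowest or, in tuft cells, next above Cd40-/- RANKL-Ab, and WT-RANKL-Ab and Cd40-/- Control are the highest.

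Of 29 other genes of the pathway, all were tested across gates. In cTECs 8 were higher, led by Psmb11 (6.71 ± 0.67, adjusted p = 1.28e-07, edgeR), Irf1 (1.36), the assembly factor Pomp (1.20) and Psmb5 (0.69), and 16 lower, led by the proteasome activator subunit Psme1 (-2.75 ± 0.18, adjusted p = 6.57e-10), Irf9 (-1.65), Stat2 (-1.51) and H2-Q7 (-1.47). In Aire+ mTECs 9 were higher, led by Psme2 (1.56), Calr (1.16), Psme3 (1.15) and Psme1 (1.04), and 11 lower, led by Irf9 (-2.50), Stat2 (-2.38) and Mr1 (-1.60). In progenitors 3 were higher, Psmb11, Irf1 (0.66) and Erap1 (0.54), and 12 lower, led by H2-Q7 (-2.73) and H2-Q6 (-1.97). In cycling cells 10 were higher and 10 lower, and in tuft cells 2 were higher and 19 lower. Of all genes tested, 22.4% and 26.2% were called higher and lower in cTECs, and 34.8% and 30.7% in Aire+ mTECs. The same shares were 13.7% and 16.6% in progenitors, 26.4% and 28.9% in cycling cells, and 28.0% and 29.4% in tuft cells. The counts in Aire+ mTECs and cycling cells were not far from these shares. Against WT-Control, Cd40-/- RANKL-Ab had H2-T23 at -1.79, H2-Q4 at -1.53 and Stat2 at -1.51 in CCL21+ mTECs, and Psmb11 at 3.38, from 5.88 to 61.0 CPM. cTECs were 0.871% of the cells in WT-Control and 12.3% in Cd40-/- RANKL-Ab, and the part of free RNA in that Psmb11 level was not tested.

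Over 47 sums of a gate in a library on the scale of log2(CPM + 10), and after subtracting the mean of each gate, the genes most like the mean of the members were Ifi27l2a (Pearson r = 0.89), Alox12e (0.87), Ctss (0.86), Ly6a (0.84), H2-Q7 (0.84), Xaf1 (0.83), Ubd (0.83), Pdlim4 (0.83), Mrpl38 (0.82) and Bst2 (0.81) among 9247 genes with a mean of at least 10 CPM. Several of these, such as Ifi27l2a, Ly6a, Xaf1 and Bst2, are known as interferon-inducible. Without the thymocyte gate Bst2 was at 0.94 and Xaf1 at 0.91. On the levels themselves the 10 closest were Dlg2 (0.83), Lmna, H2-Q6, H2-Ab1, Ifi35, Dstn, Tmem205, H2-Eb1, Spint1 and H2-Aa (0.80), and without the thymocyte gate these were at 0.42 to 0.60. The members themselves ran from 0.01 for Psmb8 and 0.03 for Tap2 to 0.84 for H2-K1 on the levels, so their mean was not a pattern of all 10. Without the thymocyte gate they ran from 0.28 for Psmb9 to 0.69 for Tap1. The points share libraries and gates, so these values are a description.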

How the data were processed

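Single-cell suspensions of sorted TECs were profiled with 10x 3' chemistry. The deposited UMI counts per gene and cell were made by the authors with Cell Ranger on mm10 (5.0.1 per the file headers, 5.1 per the submitters' processing notes) and were not normalized. A cell was kept if it had 200 genes or more and no more than 25% of its UMIs from mitochondria. A gene was kept if more than 5 cells had it (19153317 to 95271992 UMIs per library). No doublet caller was run. Cells passing the cTEC gate with an mTEC gate, or with a low thymocyte score and no cTEC gate, were set aside as mixed. So were cells passing several of the tuft, microfold, neuroendocrine, ciliated and keratinocyte gates. Other overlaps were settled by order: the CCL21+ and Aire+ gates over the progenitor gate, that gate over the cTEC gate, and the cycling and tuft gates over these. Gates used UMIs per 10000 with cuts set after the data had been seen. The members, lists and gates were chosen with earlier results of these data known. Sums of at least 20 cells were tested with edgeR 4.0.16 (R 4.3.3; TMM, filterByExpr, quasi-likelihood, library as block), and DESeq2 1.42.0 was an alternative. The library pairs the gates, since the cells of a library come from the same pool: deviations of gates of 1 library correlated with a median of 0.444 (0.0191 to 0.708). Levels have exact Poisson intervals and ratios conditional binomial ones. All members are named, as are other pathway genes by size (up to 4 per direction) and the 10 genes most like the members. A gene of the pathway list that this rule would name is not reported here. The test and the ratio intervals were checked on simulated counts. The alternatives covered scaling, filters, gates, clusters, depth and left-out libraries.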

Additional observations from a re-analysis of the deposited data

Results flagged for a closer look

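For 6 pairs of a member and a gate the ratio of the antibody library to its control lay on opposite sides of 0 in wild-type and Cd40-/- cells, with both counting intervals off 0; the difference was not tested, as each condition had 1 library. The values are log2 ratios of the antibody library to the control library of the same genotype. In tuft cells H2-D1 was at -0.69 in wild type and 0.32 in Cd40-/-. In cTECs H2-D1 was at -0.73 and 0.31, H2-K1 at 0.24 and -0.13, and Psmb10 at -0.24 and 0.24. In CCL21+ mTECs Psmb10 was at 0.14 and -0.40, and Tapbp at 0.10 and -0.26. H2-K1 UMIs per H2-D1 UMI rose with the antibody in wild type and fell with it in Cd40-/- in all gates with enough cells, thymocytes among them.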

How the results depend on the processing

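The 50 class contrasts of members gave 600 values over 12 alternatives, of which 520 kept direction and call, 67 lost the call, 13 gained it and none changed the direction of a call. Without the library block, 34 of 50 kept their call and 16 lost it: 2 members were lower in cycling cells, 0 higher and 4 lower in progenitors, and 5 lower in tuft cells. With DESeq2 or RLE size factors 4 were higher in Aire+ mTECs, 4 lower in cycling cells and 5 lower in tuft cells. With no filter on low counts 5 were lower in Aire+ mTECs. With clusters 5 were lower in cycling cells and 2 higher in progenitors. With doubled cuts 0 were higher in progenitors and 1 in tuft cells. Over left-out libraries the members called higher and lower ran from 1 to 2 and 2 to 5 in Aire+ mTECs, 2 to 3 and 4 to 5 in cTECs, 1 to 1 and 4 to 8 in cycling cells, 0 to 1 and 5 to 7 in progenitors, and 0 to 0 and 5 to 8 in tuft cells. A gate left with fewer libraries was assumed to vary like the others.

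Log2 ratios to WT-Control changed sign in 10 of 1413 alternative values. With the mean over cells H2-K1 in WT-RANKL-Ab was at 0.0049 in CCL21+ mTECs and 0.0061 in tuft cells, and in Aire+ mTECs B2m of WT-RANKL-Ab was at -0.044 and Tap2 of Cd40-/- Control at -0.0052. With TMM factors Tapbp in CCL21+ mTECs was at -0.0032 and H2-K1 in Aire+ mTECs at -0.010 in Cd40-/- Control. With doubled cuts B2m in Aire+ mTECs of WT-RANKL-Ab was at -0.034. With clusters it was at -0.037, Tap2 in Aire+ mTECs of Cd40-/- Control at -0.045 and H2-K1 in progenitors of WT-RANKL-Ab at 0.037. With TMM factors the median over members moved in Cd40-/- Control to -0.37 in CCL21+ mTECs, -0.33 in Aire+ mTECs and -0.41 in progenitors, and in Cd40-/- RANKL-Ab to -0.74 in CCL21+ mTECs. At 1.5-fold, members lower than WT-Control were 4 in WT-RANKL-Ab and 7 in Cd40-/- RANKL-Ab in CCL21+ mTECs, 3 in Cd40-/- Control in progenitors, 3, 3 and 2 in cTECs, and 6, 3 and 7 in tuft cells. At 2-fold, progenitors of Cd40-/- Control had 3 with TMM factors, 2 with cells of at least 2000 UMIs and 0 with clusters, and those of WT-RANKL-Ab 0 with clusters. With the mean over cells 1 was lower in cycling cells and 1 in tuft cells of WT-RANKL-Ab. In cells with 0 thymocyte UMIs, 1 was lower in cTECs of WT-RANKL-Ab, 1 in those of Cd40-/- Control and 5 in tuft cells of Cd40-/- RANKL-Ab. With doubled cuts 0 were lower in cTECs of Cd40-/- RANKL-Ab and 1 in tuft cells of WT-RANKL-Ab. The share of all genes was not computed at 1.5-fold, nor at 2-fold under the alternatives. These counts therefore show how the settings move them and not a trait of the members. The causes were not tested. The alternatives without shared barcodes and without the thymocyte gate were chosen after seeing the data. Depth limits Nlrc5 in every gate but CCL21+ and Aire+ mTECs, and all members in the 65 tuft cells of Cd40-/- RANKL-Ab and the 89 cTECs of WT-Control.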
